A study of Mus musculus with 14 samples.

Results

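Some genes of the presynaptic active zone differed between picrotoxin-treated and control cultures, and others did not pass the test. The 10 genes described here were given as a list by symbol: Bsn, Pclo, Rims1, Rims2, Unc13a, Unc13b, Erc2, Rimbp2, Rab3a and Ppfia2. All 10 were among the 43629 genes of the count tables and among the 15959 genes tested, and none was lost to the filter on low counts. In picrotoxin-treated cultures Unc13b and Ppfia2 rose, Rimbp2, Rab3a and Erc2 fell, and the other 5 did not pass the test. Of all tested genes, 39.2% passed. Among the other 5, Unc13a passed when libraries with the same replicate number were paired, a fit in which 55.3% of all tested genes passed.

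The expression data come from 8 libraries of primary hippocampal cultures from wild-type C57BL6 mice. Cultures were prepared at postnatal day 0 to 1 and kept 14 days in vitro in medium with 2% B27 supplement. The labels do not say whether the libraries came from separate cultures. Of the libraries, 4 are from cultures given 100 µM picrotoxin for 15 h (PTX) and 4 from cultures given the solvent, 0.1% DMSO, for 15 h (CTRL). Picrotoxin is a blocker of the chloride channel of GABA-A receptors and so removes fast inhibition. Such cultures hold excitatory and inhibitory neurons together with glia, and in them fewer cells of a type and less RNA per cell cannot be told apart. Binding of L3mbtl1, a protein that reads methylated histones, was mapped by ChIP-seq in hippocampal tissue at postnatal day 7 to 8, using 3 L3mbtl1-/- and 3 wild-type C57BL6/129 samples. It is represented by 1 list of 4677 peaks for all 6 samples, so signal in knockout and wild-type hippocampus was not compared here.

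The active zone is the patch of presynaptic membrane where synaptic vesicles dock, are primed and fuse when calcium enters. Bassoon and piccolo (Bsn, Pclo) are very large scaffolds, and ELKS2 (Erc2) and liprin-alpha2 (Ppfia2) are scaffolds that recruit other active zone proteins. RIM proteins (Rims1, Rims2) bind calcium channels, vesicle GTPases and Munc13, and RIM-binding protein 2 (Rimbp2) links RIM to calcium channels. Munc13-1 and Munc13-2 (Unc13a, Unc13b) prime vesicles, and Rab3A (Rab3a) is a GTPase on the vesicle that RIM binds.

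Upstream sequences are shown for 3 of the 10 genes: Ppfia2 and Unc13b, because L3mbtl1 peaks lie beside their start sites, and Rab3a, because it was the only gene past the expression test that held a TGACG motif there. Each is the 250 bases before a start site listed by RefSeq, 5′ to 3′ on the + strand of GRCm38.p6, the assembly of mm10. They lie at chr10:106470060-106470309, chr4:43058703-43058952 and chr8:70754453-70754702. Capitals mark the bases inside a peak in Ppfia2 and the motif in Rab3a, and the Unc13b stretch holds neither. The Rab3a motif lies on the other strand and so reads CGTCA here. The Rab3a stretch is that before the first of 2 listed start sites.
Ppfia2: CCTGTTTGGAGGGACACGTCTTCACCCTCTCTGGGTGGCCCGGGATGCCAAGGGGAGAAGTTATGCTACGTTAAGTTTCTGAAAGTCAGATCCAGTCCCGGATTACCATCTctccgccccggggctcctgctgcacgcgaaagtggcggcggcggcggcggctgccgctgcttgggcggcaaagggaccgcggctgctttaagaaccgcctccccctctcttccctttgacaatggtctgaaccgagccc
Unc13b: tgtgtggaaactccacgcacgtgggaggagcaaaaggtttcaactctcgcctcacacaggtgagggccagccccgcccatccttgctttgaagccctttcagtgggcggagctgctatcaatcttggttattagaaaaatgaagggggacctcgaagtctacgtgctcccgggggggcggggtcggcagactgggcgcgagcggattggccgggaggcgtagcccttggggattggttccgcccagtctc
Rab3a: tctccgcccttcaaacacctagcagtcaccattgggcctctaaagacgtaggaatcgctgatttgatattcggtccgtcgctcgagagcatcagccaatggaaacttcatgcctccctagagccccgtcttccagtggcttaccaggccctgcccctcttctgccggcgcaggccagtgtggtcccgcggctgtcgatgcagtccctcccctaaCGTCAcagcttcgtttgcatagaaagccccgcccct

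Libraries held 15082428 to 16838989 gene counts in PTX and 14524916 to 19498189 in CTRL, and the lowest count of any of the 10 genes in any library was 202. Over all genes 6248 of 15959 were called (edgeR adjusted p under 0.05, 39.2%), with 3034 higher (19.0%) and 3214 lower (20.1%) in PTX. A check list of 10 activity-induced genes had 10 that rose. Those with the smallest p were Inhba, an activin subunit gene (117.3 ± 30.9 CPM in PTX and 0.97 ± 0.37 CPM in CTRL), the granin gene Scg2 (2924 ± 316.0 CPM in PTX and 227.1 ± 56.9 CPM in CTRL) and the AP-1 genes Fosb (44.5 ± 10.2 CPM in PTX and 0.66 ± 0.35 CPM in CTRL) and Fos (326.2 ± 39.8 CPM in PTX and 24.7 ± 8.86 CPM in CTRL, SD, n = 4 each). The second principal component (21% of the variance) set PTX replicate 1 and CTRL replicate 1 apart from the other 6 libraries. In these 2 libraries the summed level of 8 meningeal fibroblast markers was 564.7 CPM in PTX and 709.6 CPM in CTRL, against at most 142.5 CPM in the other PTX and 225.1 CPM in the other CTRL libraries. PTX replicate 1 was the highest PTX library for 9 of the 10 active zone genes and CTRL replicate 1 the highest CTRL library for all 10. Their part in the results was not tested, and calls without both libraries are given below.

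Against this background 5 of the 10 active zone genes were called, 2 higher and 3 lower, shares of the same order as the 39.2%, 19.0% and 20.1% of all tested genes. Their median log2 fold change was -0.06, beside -0.03 over all tested genes. The groups did not overlap for 4 of the 10, beside 38.0% of all tested genes. With the replicate number as a block, 3 were higher and 3 lower, Unc13a being called too, beside 8820 of all tested genes called (55.3%), 4097 higher (25.7%) and 4723 lower (29.6%). Without both libraries numbered 1, the counts were also 3 higher and 3 lower, again with Unc13a. In that fit 6042 of 16056 tested genes were called, 54.8% of them higher.

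**Figure D1:**
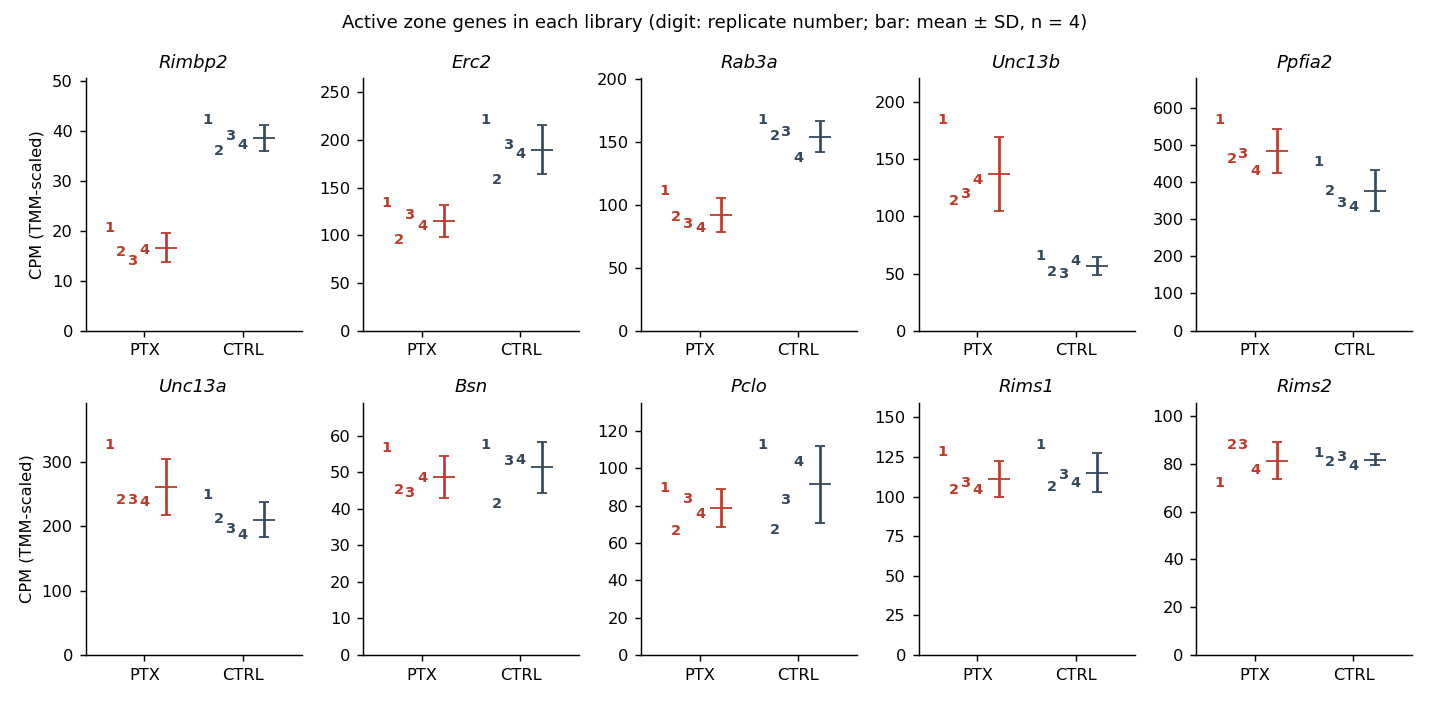
Level of each active zone gene (CPM on TMM-scaled library sizes, y axis from 0) in the 4 PTX and 4 CTRL libraries, each digit being a replicate number and each bar the mean ± SD. The PTX and CTRL digits are apart for Rimbp2, Erc2, Rab3a and Unc13b and overlap for the other 6 genes.

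Among the scaffolds, Erc2 fell and Ppfia2 rose. Erc2 (ENSMUSG00000040640, chromosome 14, 27622275 to 28478537) was at 134.2, 95.01, 121.1 and 110.0 CPM in PTX replicates 1 to 4, against 220.4, 157.9, 195.1 and 185.2 CPM in CTRL replicates 1 to 4. The lowest CTRL library was above the highest PTX library. This was a 1.65-fold fall (log2 fold change -0.72, SE 0.13, edgeR adjusted p = 0.00157), seen in 4 of 4 same-numbered pairs.

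Ppfia2 (ENSMUSG00000053825, chromosome 10, 106469500 to 106933468) was at 565.8, 461.8, 475.8 and 429.1 CPM in PTX and 453.9, 376.1, 344.2 and 333.5 CPM in CTRL. The groups overlapped, CTRL replicate 1 lying above PTX replicate 4, but PTX was higher in 4 of 4 pairs. The rise was 1.28-fold (log2 fold change 0.36, SE 0.12, edgeR adjusted p = 0.0400). No other of the 5 calls had a larger p: without CTRL replicate 2, 3 or 4 or PTX replicate 2 the edgeR adjusted p was 0.0944, 0.114, 0.101 and 0.0543. Without both libraries numbered 2 it was 0.106, and over all alternatives the edgeR adjusted p ran from 0.000255 to 0.114.

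Bsn and Pclo did not pass the test. Bsn (ENSMUSG00000032589, chromosome 9, 108096022 to 108190419) was at 56.8, 45.1, 44.5 and 48.4 CPM in PTX and 57.6, 41.3, 53.1 and 53.4 CPM in CTRL. Its log2 fold change of -0.08 had a 95% interval of -0.34 to 0.19 (edgeR adjusted p = 0.659). Pclo (ENSMUSG00000061601, chromosome 5, 14514906 to 14863465) was at 89.7, 66.4, 83.7 and 75.5 CPM in PTX, against 112.7, 67.0, 82.9 and 103.6 CPM in CTRL. CTRL libraries of Pclo spread most of all 10 genes, with a coefficient of variation of 22.5%. The log2 fold change of Pclo was -0.22 with a 95% interval of -0.58 to 0.15 (edgeR adjusted p = 0.329). These intervals leave room for a change in either direction, so the test does not show that Bsn and Pclo were equal in the 2 groups.

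Both RIM genes stayed within their spread while the RIM-binding protein gene fell. Rimbp2 (ENSMUSG00000029420, chromosome 5, 128757788 to 128953644) was at 20.7, 15.8, 13.9 and 16.2 CPM in PTX and 42.2, 36.1, 39.1 and 37.2 CPM in CTRL. Every PTX library was below every CTRL library. The fall was 2.32-fold (log2 fold change -1.21, SE 0.12, edgeR adjusted p = 4.84e-05), seen in 4 of 4 pairs.

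Rims1 (ENSMUSG00000041670, chromosome 1, 22285972 to 22806158) was at 128.2, 103.9, 108.3 and 104.2 CPM in PTX and 132.7, 105.9, 113.9 and 108.3 CPM in CTRL. Each PTX library was slightly below its same-numbered CTRL library, but the groups overlapped almost fully. The log2 fold change was -0.05 with a 95% interval of -0.28 to 0.18 (edgeR adjusted p = 0.730). Rims2 (ENSMUSG00000037386, chromosome 15, 39198286 to 39684372) was at 72.1, 87.9, 87.8 and 77.4 CPM in PTX, against 84.4, 80.6, 82.7 and 79.0 CPM in CTRL. PTX was higher in 2 of 4 pairs and lower in the other 2. Its log2 fold change of -0.01 had a 95% interval of -0.20 to 0.18 (edgeR adjusted p = 0.963).

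Of the Munc13 genes, Unc13b rose and Unc13a did not pass the test. Unc13b (ENSMUSG00000028456, chromosome 4, 43046193 to 43264873) was at 184.2, 113.5, 119.8 and 131.6 CPM in PTX and 65.4, 51.4, 49.4 and 60.6 CPM in CTRL. All PTX libraries were above all CTRL libraries. The rise was 2.42-fold (log2 fold change 1.28, SE 0.16, edgeR adjusted p = 0.00018), seen in 4 of 4 pairs. Its RefSeq interval shares 28 bp at its low-coordinate end with Fam214b (chromosome 4, 43032414 to 43046220), which also rose, to 41.8 ± 5.38 CPM in PTX against 19.9 ± 0.38 CPM in CTRL (SD, n = 4 each, edgeR adjusted p = 3.17e-05).

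Unc13a (ENSMUSG00000034799, chromosome 8, 71624125 to 71671774) was at 326.5, 240.4, 241.3 and 237.0 CPM in PTX, against 248.0, 211.2, 196.0 and 186.4 CPM in CTRL. PTX replicate 1 was well above the other PTX libraries, and CTRL replicate 1 lay inside the PTX range. The log2 fold change was 0.31 (SE 0.13) and did not pass over all genes (edgeR adjusted p = 0.0832), although its own unadjusted 95% interval of 0.02 to 0.60 lay above 0. The 4 same-numbered pairs all had more Unc13a in PTX, and with the replicate number as a block the gene was called (log2 fold change 0.31, edgeR adjusted p = 0.00102). It also passed without CTRL replicate 1 (edgeR adjusted p = 0.0283), without PTX replicate 4 (0.0458) and without both libraries numbered 1 (0.0136), over a range of 0.00102 to 0.193. Unc13a shares 787 bp with Colgalt1, a collagen glycosyltransferase gene, which fell (34.0 ± 3.18 CPM in PTX and 59.8 ± 3.80 CPM in CTRL, SD, n = 4 each, edgeR adjusted p = 7.32e-05). The strand setting of the counting is not given, so reads from these shared stretches cannot be assigned.

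Rab3a (ENSMUSG00000031840, chromosome 8, 70754703 to 70758608), the vesicle GTPase gene, fell. It was at 111.1, 90.2, 84.4 and 81.9 CPM in PTX and 167.1, 155.1, 158.1 and 136.9 CPM in CTRL. The groups were apart, with 4 of 4 pairs lower in PTX. The fall was 1.68-fold (log2 fold change -0.75, SE 0.11, edgeR adjusted p = 0.000488). The calls of Unc13b, Erc2, Rimbp2 and Rab3a held under each of the 15 alternatives run.

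**Figure D2:**
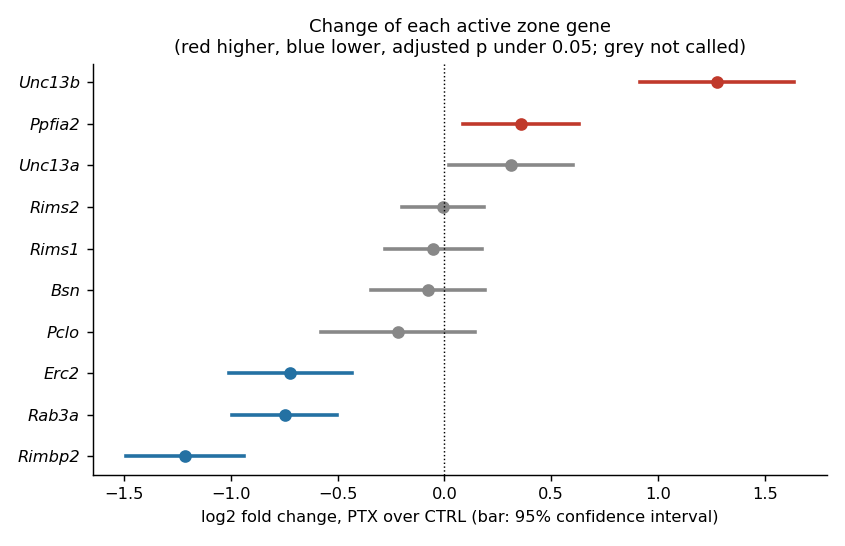
Log2 fold change of each active zone gene, PTX over CTRL, with its 95% confidence interval from the edgeR fit (n = 4 each). Unc13b (1.28) and Ppfia2 (0.36) are coloured as higher, Rimbp2 (-1.21), Rab3a (-0.75) and Erc2 (-0.72) as lower, and the other 5 are grey.

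Ratios of related genes within a library do not depend on library scaling. Read counts are not scaled to gene length here, so only the change of a ratio can be read, not its level. The Unc13a to Unc13b ratio was 1.77, 2.12, 2.02 and 1.801 in PTX, against 3.79, 4.11, 3.96 and 3.08 in CTRL. All PTX values were below all CTRL values, a difference of -0.95 on the log2 scale (2-sided exact permutation test p = 0.0286, the smallest that 4 against 4 allows, adjusted p = 0.0857 over the 3 ratios compared). Unless another ratio also had the smallest p, 1 ratio could not reach 0.05 after adjustment over the 3 ratios. The adjusted p therefore cannot decide whether this ratio differed. The Rims1 to Rims2 ratio averaged 1.37 in PTX and 1.41 in CTRL (geometric means, n = 4 each, exact permutation p = 0.771, adjusted p = 0.771). The Bsn to Pclo ratio averaged 0.619 in PTX and 0.568 in CTRL (geometric means, n = 4 each, exact permutation p = 0.229, adjusted p = 0.343). For these 2 pairs the groups overlapped.

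**Figure D3:**
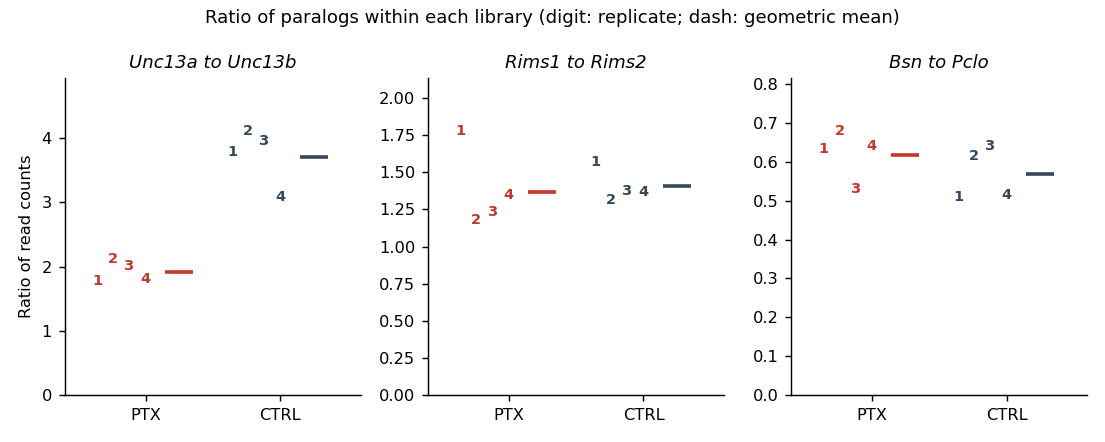
Ratio of the read counts of 2 related genes within each library (y axis from 0), with digits for replicate numbers and a dash for the geometric mean of 4 libraries. The Unc13a to Unc13b ratio lies between 1.77 and 2.12 in PTX and between 3.08 and 4.11 in CTRL, while the other ratios overlap.

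From the families of these genes, 11 further paralogs were looked at, a set named after its values were seen. Of these, 2 rose, 5 fell and 4 did not pass the test, beside 19.0% of all tested genes higher and 20.1% lower. Erc1, the ELKS1 gene, rose to 209.9 ± 35.9 CPM in PTX, against 140.5 ± 22.9 CPM in CTRL (SD, n = 4 each, log2 fold change 0.58, edgeR adjusted p = 0.0115), opposite in sign to Erc2. Rims4, which encodes a short RIM protein, rose with a log2 fold change of 0.45 (edgeR adjusted p = 0.0240), a call lost without CTRL replicate 2 (0.0708) or 4 (0.0602) and without both libraries numbered 2 (0.0529), with a range over alternatives of 0.000122 to 0.0708. Tspoap1, encoding RIM-binding protein 1, fell with Rimbp2, to 90.3 ± 14.7 CPM in PTX against 162.9 ± 16.3 CPM in CTRL (SD, n = 4 each, log2 fold change -0.85, edgeR adjusted p = 0.000447). Unc13c, the Munc13-3 gene, fell by 1.01 on the log2 scale (edgeR adjusted p = 0.00408). The liprin gene Ppfia4 fell by 0.53 (edgeR adjusted p = 0.00143).

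Among the Rab3 genes, Rab3d fell by 1.28 on the log2 scale (edgeR adjusted p = 0.000129) and Rab3b by 0.69 (edgeR adjusted p = 0.0102), beside Rab3a. The Rab3b call was lost without PTX replicate 3 (0.0532) or 4 (0.051), over a range of 3.53e-05 to 0.0532. Rab3c was at 542.8 ± 124.5 CPM in PTX and 448.8 ± 93.8 CPM in CTRL (SD, n = 4 each, edgeR adjusted p = 0.258) and did not pass. Rims3, Ppfia1 and Ppfia3 did not pass either, with log2 fold changes of 0.23, 0.17 and -0.26. With the replicate block Rims3 (edgeR adjusted p = 0.0218), Ppfia3 (0.00618) and Rab3c (0.00255) were called, beside 55.3% of all tested genes in that fit. Rims3 also passed with DESeq2 size factors (0.0404) and without CTRL replicate 3 (0.0351), and Rab3c without CTRL replicate 1 (0.0484) and without both libraries numbered 1 (0.0224).

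In a wider list of 38 other genes of the active zone and of vesicle priming, which holds these paralogs, 8 rose and 12 fell. Over all tested genes 19.0% rose and 20.1% fell. The median log2 fold change of the list was -0.05, beside -0.03 over all tested genes. The count of rises was 13 of 38 with the replicate block, beside 25.7% of all tested genes in that fit and 19.0% in the fit without it. It was 5 without CTRL replicate 4 and 5 without both libraries numbered 2. In these 2 fits 5687 of 16202 and 5540 of 16022 tested genes were called, 47.9% and 49.1% of them higher. The main fit called 6248 of 15959, 48.6% of them higher. Rab3gap2, a subunit of the GTPase-activating complex that turns Rab3 off, rose to 280.7 ± 41.5 CPM in PTX, against 110.9 ± 5.21 CPM in CTRL (SD, n = 4 each, log2 fold change 1.34, edgeR adjusted p = 1.19e-05). Its partner subunit gene Rab3gap1 rose by 0.28 on the log2 scale (edgeR adjusted p = 0.0068). Rab3ip, encoding the exchange factor Rabin8, had a log2 fold change of 1.00 (edgeR adjusted p = 0.000358) and the scaffold gene Git1 of 0.51 (edgeR adjusted p = 0.00176). The falls with the smallest p were Cadps2, encoding the dense-core vesicle priming factor CAPS2 (log2 fold change -1.32, edgeR adjusted p = 6.55e-05), the calcium sensor gene Doc2b (-1.43, 0.000124), Rab3d and Tspoap1.

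Downstream of priming, the 20 genes of vesicle fusion and vesicle proteins had 2 rises, 8 falls and a median log2 fold change of -0.35. Over all tested genes 19.0% rose and 20.1% fell, with a median of -0.03. The SNARE genes Snap25 (1341 ± 92.3 CPM in PTX and 880.6 ± 99.2 CPM in CTRL, SD, n = 4 each, edgeR adjusted p = 0.00114) and Vamp2 (log2 fold change 0.34, edgeR adjusted p = 0.0078) were those that rose. Syngr1, a vesicle membrane protein gene, fell with the smallest p (log2 fold change -0.96, edgeR adjusted p = 0.000184), followed by the calcium sensor gene Syt1 (-0.70, 0.000415), Cplx2 (-0.84, 0.00218), which encodes a SNARE-binding complexin, and the synapsin gene Syn2 (-0.92, 0.00518). The count of falls was 5 without CTRL replicate 1, without PTX replicate 2, 3 or 4 and without both libraries numbered 2. Over all tested genes the falls also varied with 1 library left out, beside 3214 of 15959 in the main fit. They were fewest without PTX replicate 3 (2207 of 16214) and most without PTX replicate 2 (3199 of 16230). Without both libraries numbered 2, 5540 of 16022 tested genes were called, 49.1% of them higher.

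Of 10 calcium channel genes of release sites, 2 rose and 4 fell, with a median log2 fold change of -0.22. Over all tested genes 19.0% rose and 20.1% fell, with a median of -0.03. Cacnb3, a beta subunit gene, fell to 16.4 ± 1.12 CPM in PTX, against 48.8 ± 4.41 CPM in CTRL (SD, n = 4 each, log2 fold change -1.58, edgeR adjusted p = 2.65e-06). The other falls were the alpha2delta genes Cacna2d1 (-0.81, edgeR adjusted p = 0.000718), Cacna2d2 (-0.73, 0.00567) and Cacna2d3 (-0.73, 0.00031). Cacnb4 rose (0.52, edgeR adjusted p = 0.00254), as did the pore gene Cacna1e (0.46, 0.0385), which was no longer called when CTRL 2 (0.119), CTRL 3 (0.106), CTRL 4 (0.0747), PTX 1 (0.0618) or PTX 3 (0.0745) was left out, over a range of 0.000186 to 0.119.

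**Figure D4:**
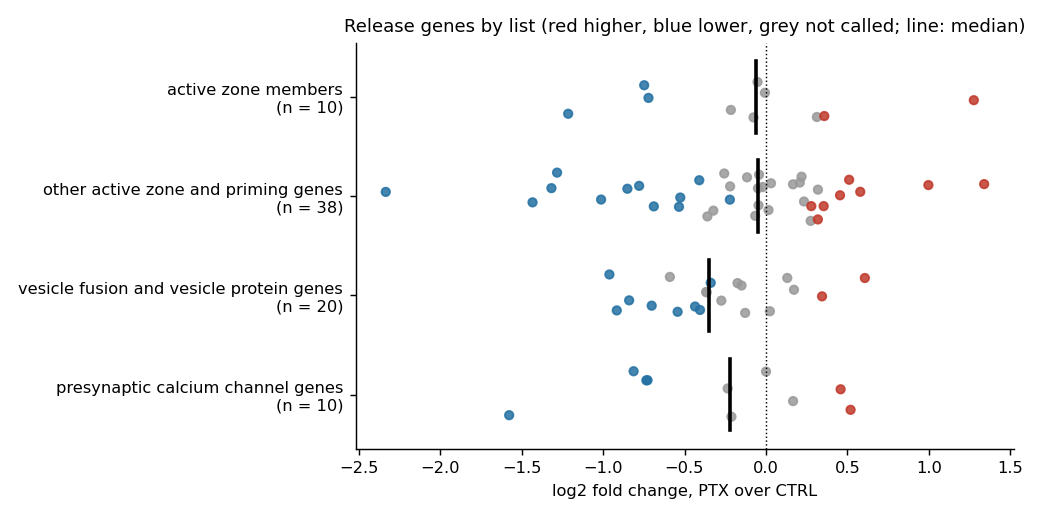
Log2 fold change, PTX over CTRL, of every tested gene in the active zone list and 3 related lists, 1 point per gene, with a line at each list's median. Medians are -0.06, -0.05, -0.35 and -0.22 from top to bottom, and each list holds genes called in both directions.

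Markers of the cell types in the cultures moved beside these genes, and their part in the active zone results was not tested. The marker counts below stand beside 19.0% of all tested genes higher and 20.1% lower. Of 8 excitatory neuron markers, 7 fell and 0 rose, with a summed level of 240.3 to 269.2 CPM in PTX and 457.9 to 588.2 CPM in CTRL; the transcription factor genes Neurod2, Neurod6 and Emx1 and the kinase gene Camk2a had the smallest p. Of 8 pan-neuronal markers, Nefl and Map2 rose and Rbfox3 fell (summed 5671 to 8309 CPM in PTX and 2963 to 4118 CPM in CTRL). Nefl, a neurofilament gene, alone was at 3319 ± 777.7 CPM in PTX and 319.3 ± 119.3 CPM in CTRL (SD, n = 4 each), and the Map2 call was lost without CTRL replicate 2 (edgeR adjusted p = 0.0533, over a range of 1.97e-05 to 0.0533). Of 10 inhibitory neuron markers, Gad1, Gad2, Sst and Vip rose and Dlx1 and Lhx6 fell (960.2 to 1092 CPM in PTX and 543.9 to 712.3 CPM in CTRL). Of 9 astrocyte markers, Aqp4, Aldoc, Gfap and Slc1a2 fell (4537 to 6272 CPM in PTX and 6232 to 8404 CPM in CTRL). Slc1a2 lost its call with DESeq2 size factors, without CTRL replicate 1, 2 or 3, without PTX replicate 2, 3 or 4 and without both libraries numbered 2.

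The other marker lists had few called genes. Of 7 tested among 8 microglia markers, Cd68 rose (summed 42.0 to 141.6 CPM in PTX and 15.7 to 74.0 CPM in CTRL). The log2 fold changes of these 7 were all positive, from 0.216 to 1.67. Of 3 tested among 6 endothelial markers, Flt1 rose (27.9 to 47.7 CPM in PTX and 24.6 to 55.6 CPM in CTRL). None of 7 tested among 9 oligodendrocyte lineage markers was called (233.7 to 507.2 CPM in PTX and 205.9 to 445.3 CPM in CTRL). None of the 8 meningeal fibroblast markers was called either. No listed marker was at 0 counts, but Tmem119, Mog, Mag, Cldn5, Cdh5 and Tek were too low to be tested.

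Genes with the most similar pattern over the 8 libraries were found for Rimbp2 and Rims2, which had the smallest and the largest p of the 10 in the fit without a block, by the root mean square difference of centred log2 CPM. For Rimbp2 these were Adam11 (0.07), the chromobox gene Cbx6 (0.07) and the zinc transporter gene Slc39a2 (0.08). For Rims2 they were Rbm45 (0.03), the ribosomal protein gene Rpl14 (0.04) and Rfwd3 (0.04). The ranking rested on single libraries: with 1 library left out, 0 to 2 of the 3 named genes stayed among the 3 nearest, while all 3 stayed among the 50 nearest.

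L3mbtl1 itself fell in PTX, to 2.92 ± 1.83 CPM against 9.97 ± 0.97 CPM in CTRL (SD, n = 4 each, edgeR adjusted p = 0.00249). Among the active zone genes, 2 of 10, Ppfia2 and Rims2, had an L3mbtl1 peak within 2000 bp of a gene end, beside 26.0% of the 14736 tested genes with a RefSeq position. The score of each peak is the authors' own and serves here to rank peaks within their list. The Ppfia2 peak (chromosome 10, 106469500 to 106470170) was 671 bp wide, with a score of 14.0 and rank 1005 of 4677. It began at the low-coordinate end of the gene and ran from -810 to -140 bp relative to the listed start site, taking in the first 111 bases of the Ppfia2 stretch printed above. The Rims2 peak (chromosome 15, 39199174 to 39199828) was 655 bp wide, with a score of 11.4 and rank 1955, and lay 888 to 1542 bp inside the low-coordinate end of the gene.

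Unc13b had no peak near a gene end but had 1 inside the gene (chromosome 4, 43059006 to 43059831, 826 bp, score 9.73, rank 3076). This peak began 53 bp after the start site listed by RefSeq for Unc13b, which lies inside the gene interval, just downstream of the Unc13b stretch above. Measured from listed start sites instead of gene ends, a setting chosen after seeing the data, 2 of the 9 genes with such a site had a peak within 2000 bp, Ppfia2 and Unc13b, beside 27.0% of 11494 tested genes. For Unc13a the nearest peak was 12015 bp from a gene end, for Erc2 26053 bp, for Rab3a 39472 bp, for Rimbp2 65713 bp and for Bsn 73113 bp, and those of Rims1 (324385 bp) and Pclo (1071760 bp) were farther still.

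**Figure D5:**
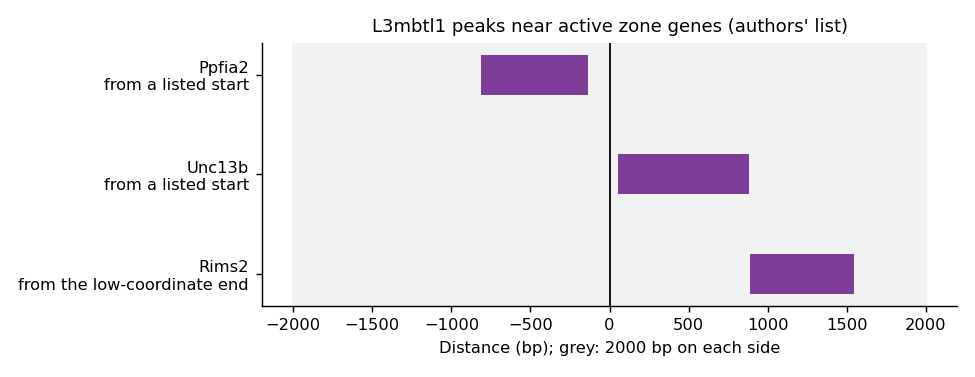
Position of the L3mbtl1 peaks of the authors' list near Ppfia2 and Unc13b (distance in bp from the start site listed by RefSeq, downstream to the right) and Rims2 (distance in bp from the low-coordinate gene end). The Ppfia2 peak lies upstream of its start site, from -810 to -140 bp, and the Unc13b peak downstream, from 53 to 878 bp.

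The 250 bases before each listed start site were searched on both strands for TGACGTCA, the full site of the CREB factors. They were also searched for its core TGACG, which overlaps it, and for TGANTCA, where N is any base. The last pattern includes the AP-1 site but is wider than it. Among the 10 stretches of 9 genes, TGACGTCA occurred in 0 (1.55% of 32841 RefSeq stretches of this length). TGACG occurred in 2, beside 17.8% of all stretches. In Rab3a it occurred once, starting 36 bases before the first of 2 listed start sites, and was absent from the stretch before the second. In Unc13a it occurred at 2 places, starting 44 and 11 bases before the start site. TGANTCA occurred in 1, that of Erc2, beside 6.75% of all stretches. These matches describe letters in a window and show no binding.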

How the data were processed

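RNA-seq read counts per Ensembl gene were used as deposited by the authors, 1 table per library. Libraries were made with ScriptSeq v2 after removal of rRNA, per the labels' protocols. Bowtie2 2.2.4, TopHat2 2.0.9, CASAVA 1.8 and HTSeq 0.6.1, with build mm10, are named by the submitters' processing notes. What each did, the annotation release and the strand setting are not stated there. Each ChIP-seq peak has a score from the authors' deposited list, and no label or header names its caller, IDR threshold or pooling. The 5 summary lines of each table were left out of library sizes: 19.9% to 26.8% of alignments were outside genes, 15.2% to 20.5% not unique and 0.58% to 0.675% ambiguous. Symbols matched 42462 of 43629 identifiers. No library was a copy of another of its group (12 pairs compared, smallest chi-square per degree of freedom 10.3). PTX libraries were not compared with CTRL libraries in this way.

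PTX and CTRL were compared over all genes by the quasi-likelihood test of edgeR 4.0.16 in R 4.3.3, with group as the only term. TMM scaling, the filterByExpr filter and Benjamini-Hochberg adjustment over all tested genes were used. The fit was checked on simulated counts with few changed genes, a fixed spread and no effect of replicate. That check therefore does not cover the share of changed genes or the pairing seen in these data. CPM values used TMM-scaled library sizes, and similarity of patterns used log2 CPM with a prior count of 2. Ratios of read counts had 0.5 added to each count. DESeq2 1.42.0, other scalings, no filter, the replicate block and left-out libraries were alternatives. Same-numbered PTX and CTRL libraries deviated together from their group means (correlations 0.77, 0.566, 0.153 and 0.608). The numbers of the sample titles were therefore used to pair them in the counts of pairs, the replicate block and the sign-flip test. The main fit left this pairing out. The labels do not say whether libraries came from separate cultures, so p-values measure the spread between these libraries, which may be technical. Positions, start sites and sequences were those of RefSeq, GRCm38.p6. The genes, lists and tests were chosen with earlier results of these data known. All 10 genes are named; of each other list, the 4 called genes of smallest p in each direction are named, and others only where said.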

Additional observations from a re-analysis of the deposited data

Results flagged for a closer look

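The PTX library numbered 1 lay far above the other PTX libraries for Unc13a, at 326.5 CPM against 237.0 to 241.3 CPM, a gap of 0.952 of the whole range of the group. The same library stood apart for the summed meningeal fibroblast markers in PTX (564.7 CPM), and the CTRL library numbered 1 for the same markers in CTRL (709.6 CPM) and for the summed pan-neuronal markers in CTRL (4118 CPM). Of 42 groups of 4 libraries looked at, 4 passed Dixon's limit of 0.829, and chance flags about 1 in 20. No explanation was tested.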

How the results depend on the processing

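Of the active zone genes, Unc13b, Erc2, Rimbp2 and Rab3a kept direction and call under all 15 alternatives (log2 fold changes with 1 library left out 1.15 to 1.41, -0.81 to -0.59, -1.29 to -1.08 and -0.80 to -0.62). With 1 library left out, 1 to 3 members were higher and 3 to 3 lower. Over all tested genes (16175 to 16242 in those fits) 2519 to 3356 were higher and 2207 to 3199 lower. Without both libraries numbered 2 the count of members higher was 1, beside 5540 of 16022 tested genes called, 49.1% of them higher. Of the 5 that did not pass, Pclo and Unc13a kept their sign under all 15 alternatives and 3 did not: Rims2 was 0.025 with DESeq2 size factors in edgeR, 0.023 with DESeq2 and 0.10 without both libraries numbered 1, and with 1 library left out Bsn ran from -0.18 to 0.034, Rims1 from -0.097 to 0.075, Rims2 from -0.045 to 0.095 and the Rims1 to Rims2 log2 ratio from -0.17 to 0.029. Among the other active zone genes 13 were higher with the replicate block and 5 without both libraries numbered 2 (5 to 11 with 1 library left out), 5 vesicle genes were lower without both libraries numbered 2 (5 to 10), and 1 to 2 calcium channel genes were higher. The Unc13a to Unc13b ratio, paired by number in a sign-flip test, had an adjusted p of 0.375, and 4 pairs cannot pass that test. Of 55 other named genes, 47 kept their call under every alternative and 0 changed direction. The cause of these changes was not tested. Peaks near start sites, and the similarity settings, were added after seeing the data.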
